A study of Mus musculus with 8 samples.

Results

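Glycolysis and hypoxia response genes were followed in mouse colon fibroblasts after fractionated irradiation. The set holds 40 genes chosen by name for their known roles, with no threshold on a measured value. The choice was made with earlier results of these data known, so shares of the set beside those of all genes are descriptions. All 40 were found among the 55573 genes counted, and all 40 were among the 15259 genes with enough counts to be tested. By role, 20 genes cover glucose entry, glycolytic enzymes, regulators of phosphofructokinase and lactate dehydrogenase. Another 5 handle pyruvate and lactate, 12 are targets of hypoxia-inducible factor (HIF) outside glycolysis, and 3 are the HIF alpha subunits Hif1a and Epas1 with their regulator Vhl.

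The irradiated group held 4 libraries from cells given 3 fractions of 2 Gy, and the non-irradiated group held 4 libraries from cells given no dose. The fibroblasts of both groups were of the C57BL6/J strain and had received APTKA-conditioned medium (the meaning of APTKA is not given in the labels). Culture was flat, on plastic plates, in Advanced DMEM F12 containing 10% FBS. Collection took place 72 h after the first dose. No group without conditioned medium and no group at low oxygen was analysed here, and the labels name no oxygen level. The labels call the samples independent but do not name the animals or cultures behind them. The p-values therefore measure the spread between these libraries, which may be technical.

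Glycolysis splits glucose into pyruvate in the cytosol, and lactate dehydrogenase regenerates the cofactor that the pathway needs. HIF is a pair of proteins, an alpha subunit and Arnt. With oxygen present, the prolyl hydroxylases of the Egln family mark the alpha subunit, Vhl binds the marked protein and the proteasome destroys it. At low oxygen the alpha subunit persists, enters the nucleus and binds short DNA elements with the core ACGTG or GCGTG near genes of glucose uptake, glycolysis, mitophagy, pH control and collagen hydroxylation. In fibroblasts this programme is known from wounds, fibrotic tissue and tumour stroma. Control of the alpha subunit lies mainly in its protein, so the RNA level of Hif1a is not a measure of HIF activity.

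Totals ran from 30203137 to 36497990 counts in irradiated libraries and from 28731227 to 37157216 in non-irradiated libraries. Of 9 fibroblast markers, all stood at 102 CPM or more in each library, where CPM is counts scaled to library size. Their summed level was 14790 to 16110 CPM in irradiated libraries and 16230 to 19060 CPM in non-irradiated libraries. All 9 epithelial markers were under 1 CPM in every library, with a summed level of 1.12 to 1.65 CPM in irradiated libraries and 1.03 to 2.16 CPM in non-irradiated libraries. Of other lists, 4 of 5 endothelial, 5 of 7 leukocyte, 4 of 5 glia and neuron and 2 of 5 muscle and pericyte markers were that low. The muscle and pericyte markers summed to 36.9 to 49.8 CPM in irradiated and 43.2 to 50.8 CPM in non-irradiated libraries. Irradiated I and II stood apart in mitochondrial ribosomal RNA, at 15129 and 15263 CPM of the unscaled total, against 4178 to 5934 CPM in the other 6 libraries. Its part in the results was not tested, and results that change without those libraries are given with that value.

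Irradiation moved few of these genes, and by small amounts. Hk2 and Pgk1 were lower in irradiated libraries, and Pdk4, Ddit4 and Kdm3a were higher, by edgeR's quasi-likelihood test at a Benjamini-Hochberg adjusted p under 0.05 over all tested genes. That is 3 of 40 genes called higher against 2.59% of all tested genes, and 2 of 40 called lower against 4.15%. In either direction 12.5% of the set was called, against 6.74% of all tested genes. The set was chosen with earlier results of these data known, so these shares are descriptions. The other 35 genes did not pass the test. Fold changes were below 0 on the log2 scale for 28 of 40 genes, with a median of -0.07 against 0.001 over all tested genes. The change was smaller than 1.2-fold for 36 of 40 genes (90%), and for 85.3% of all tested genes. In bulk RNA, fewer cells of a type and less RNA per cell cannot be told apart.

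**Figure D1:**
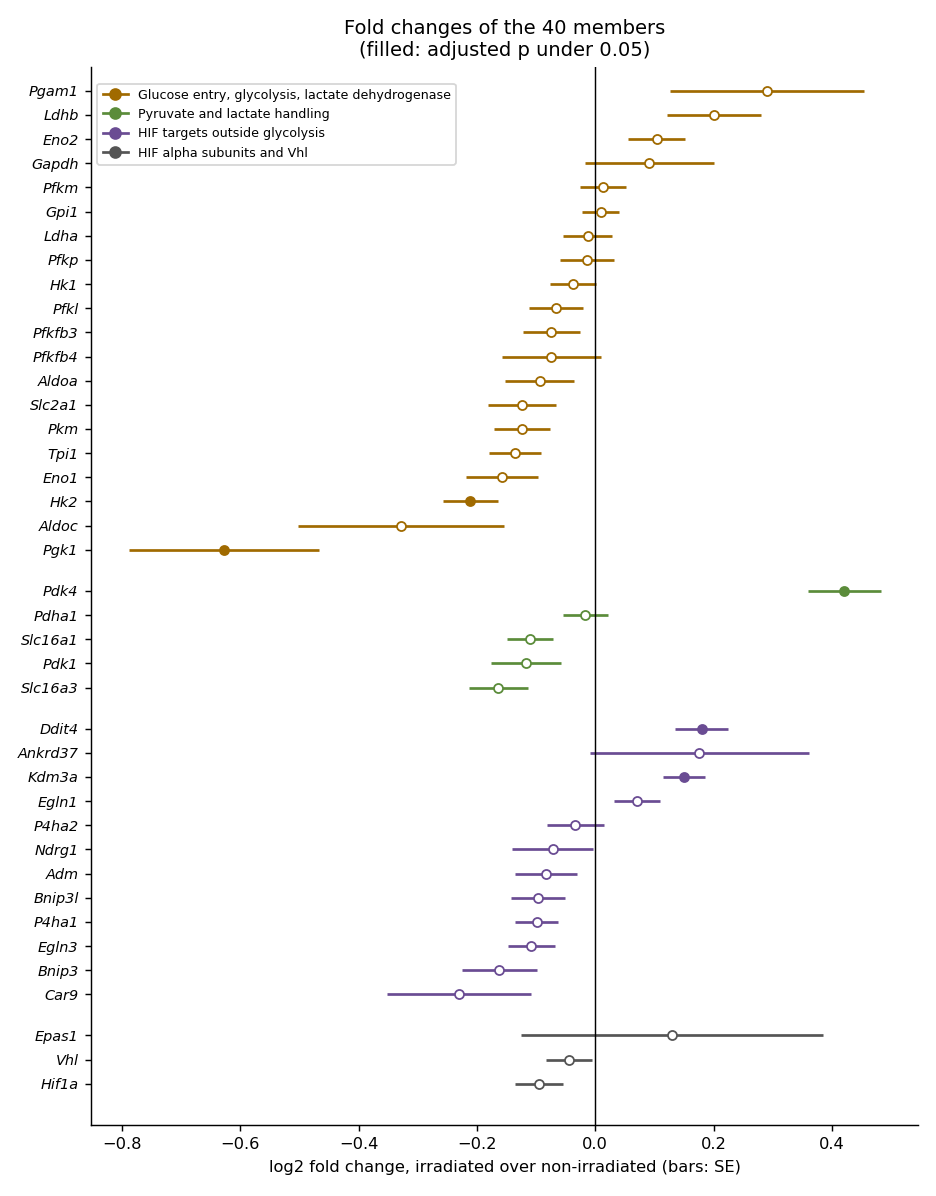
Log2 fold change of each of the 40 genes, irradiated over non-irradiated, with bars of 1 SE and filled points at an adjusted p under 0.05. Most points lie slightly left of 0, and Pgk1 at -0.63 and Pdk4 at 0.42 lie farthest out among the filled ones.

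Glucose enters the fibroblast through carriers such as Slc2a1 (GLUT1), a classical HIF target. Slc2a1 stood at 178, 181, 169.9 and 162 CPM in irradiated libraries I to IV, against 197, 174, 207 and 174 CPM in non-irradiated libraries I to IV. The groups overlapped, because non-irradiated II and IV lay among the irradiated values while I and III lay above them all. The log2 fold change was -0.12 (SE 0.057) with an edgeR adjusted p of 0.234, so no difference beyond the spread was found.

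Hexokinase traps glucose in the cell as glucose 6-phosphate, and Hk2 is its hypoxia-inducible form. Hk2 stood at 131, 124, 133 and 137 CPM in irradiated libraries, against 164, 145, 154 and 145 CPM in non-irradiated libraries. All 4 irradiated values lay below all 4 non-irradiated values, and the log2 fold change was -0.21 (SE 0.047), with an edgeR adjusted p of 0.0167. That call was lost without irradiated II (adjusted p = 0.053), without irradiated I and II together (0.161) and without non-irradiated I and III together (0.0902), each by the same test. Hk1, the constitutive hexokinase, averaged 198 ± 1.86 CPM in irradiated and 203 ± 10.6 CPM in non-irradiated libraries (SD, n = 4 each) and was not called.

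Measured against Hk1 within each library, Hk2 was at 0.653, 0.626, 0.673 and 0.699 of the Hk1 count in irradiated libraries, against 0.780, 0.755, 0.720 and 0.736 in non-irradiated libraries. The groups did not overlap in this ratio, which does not depend on library scaling. Its log2 difference was -0.18, and the exact permutation test gave p = 0.0286, the smallest that 4 against 4 libraries allow. Adjusted over the 13 ratios of paralogs and partners that were computed, it was 0.124, so the ratio failed the correction. At this group size an adjusted p under 0.05 would need 8 of the 13 ratios at the smallest p, so the correction could hardly be passed.

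The middle steps showed no call. Gpi1, which isomerises glucose 6-phosphate, stayed between 288 and 306 CPM over all 8 libraries with a log2 fold change of 0.01. The phosphofructokinase isoforms Pfkp, Pfkl and Pfkm, which set the committed step, had log2 fold changes of -0.01, -0.07 and 0.01. Pfkfb3 and Pfkfb4, which make the activator fructose 2,6-bisphosphate, both had -0.07. Aldoa, the main aldolase, averaged 749 ± 29.2 CPM in irradiated and 799 ± 74.7 CPM in non-irradiated libraries, with a log2 fold change of -0.09. Aldoc, its low paralog, lay between 0.824 and 1.59 CPM over the 8 libraries. Tpi1, triose phosphate isomerase, averaged 465 ± 13.4 CPM in irradiated and 511 ± 31.2 CPM in non-irradiated libraries (log2 fold change -0.14). Its adjusted p was 0.0854 by edgeR and 0.0436 by DESeq2.

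Pgk1, phosphoglycerate kinase, makes the first ATP of the pathway and had the lowest fold change of the set. Pgk1 stood at 11.8, 12.3, 11.2 and 11.1 CPM in irradiated libraries, against 26.5, 13.8, 17.1 and 14.7 CPM in non-irradiated libraries. The irradiated values lay close together and below all others, while non-irradiated I stood far above the rest of its group. The log2 fold change was -0.63 (SE 0.161), with an edgeR adjusted p of 0.0335. Without non-irradiated I it was -0.39 (adjusted p = 0.0171, edgeR), and without non-irradiated I and III -0.29 (adjusted p = 0.0378, edgeR), so the size rests on those libraries. The call was lost without any 1 irradiated library (edgeR adjusted p 0.0576 to 0.0904), without non-irradiated III (0.0507) and without irradiated I and II (0.109).

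Gapdh, the preceding enzyme and a common reference gene, stood at 14.6, 16.3, 12.4 and 15.4 CPM in irradiated libraries, against 13.1, 15.3, 11.04 and 15.7 CPM in non-irradiated libraries. The groups overlapped throughout, with a log2 fold change of 0.09 and an edgeR adjusted p of 0.694. Pgam1, phosphoglycerate mutase, lay at 12.5 to 15.1 CPM in irradiated libraries, and at 6.70 CPM in non-irradiated I against 11.3 to 14.4 CPM in the other non-irradiated libraries. In non-irradiated I, Pgk1 was therefore at its highest and Pgam1 at its lowest among the 8 libraries.

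The counts of Gapdh, Pgk1 and Pgam1 are uncertain. Over the 8 libraries Gapdh had 3751 counts, Pgk1 3871 and Pgam1 3415, whereas Tpi1 had 129245, Aldoa 205056 and Pkm 208418. Mouse Gapdh, Pgk1 and Pgam1 are known to have many processed copies in the genome, and how reads that map to several places were counted is not given in the sources used here. How far such copies lowered the counts was not tested. The levels and fold changes of these genes therefore describe the counted reads and may not describe the transcripts.

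In the last steps before lactate, no gene passed the test with all libraries and the filter on low counts. Eno1, enolase, averaged 115 ± 4.07 CPM in irradiated and 129 ± 13.4 CPM in non-irradiated libraries (log2 fold change -0.16, edgeR adjusted p 0.151, or 0.027 with no filter). Eno2, the enolase of neurons that is also HIF-responsive, averaged 49.5 ± 2.40 CPM in irradiated and 46.1 ± 2.35 CPM in non-irradiated libraries (log2 fold change 0.10). Pkm, pyruvate kinase, averaged 753 ± 29.9 CPM in irradiated and 821 ± 52.8 CPM in non-irradiated libraries (log2 fold change -0.12, edgeR adjusted p 0.147).

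Ldha, the lactate dehydrogenase subunit that favours lactate formation, stood at 454, 467, 452 and 421 CPM in irradiated libraries, against 441, 455, 480 and 435 CPM in non-irradiated libraries. The groups overlapped almost wholly, with a log2 fold change of -0.01 and an edgeR adjusted p of 0.904. Ldhb, the subunit that favours the return to pyruvate, averaged 19.8 ± 1.19 CPM in irradiated and 17.2 ± 2.01 CPM in non-irradiated libraries. Its log2 fold change was 0.20 with an edgeR adjusted p of 0.155, and without non-irradiated III it was called higher.

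Among the 20 glycolysis genes, 2 were called lower and 0 higher by edgeR. At an unadjusted p under 0.05 the same test counted 6 lower and 1 higher, DESeq2 called 3 lower and 0 higher, and limma-voom 2 lower and 0 higher. Over all tested genes, 11.7% were lower and 9.5% higher at an unadjusted p under 0.05, DESeq2 called 5.08% lower and 3.53% higher, and limma-voom 4.02% lower and 2.44% higher. The log2 fold change was below 0 for 14 of the 20, with a median of -0.07 and a range from -0.63 to 0.29.

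Lactate leaves cells mainly through Slc16a3 (MCT4) and enters or leaves through Slc16a1 (MCT1). Slc16a3 lay at 21.02 to 22.4 CPM in irradiated libraries and 23.4 to 25.9 CPM in non-irradiated libraries. Slc16a1 lay at 128 to 139 CPM in irradiated libraries and 140 to 150 CPM in non-irradiated libraries. Neither pair of groups overlapped, yet neither gene was called, with log2 fold changes of -0.16 and -0.11 and edgeR adjusted p of 0.0721 and 0.114. Groups did not overlap for 9 of the 40 genes (22.5%), against 14.2% of all tested genes. For 3 of them the irradiated values were all higher (background 6.13%), and for 6 they were all lower (background 8.07%).

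The pyruvate dehydrogenase kinases decide whether pyruvate enters the mitochondrion's oxidation, because they switch off pyruvate dehydrogenase. Pdk4, an isoform known as a starvation, glucocorticoid and PPAR target, stood at 21.5, 18.8, 19.9 and 19.5 CPM in irradiated libraries, against 14.0, 15.1, 14.6 and 15.9 CPM in non-irradiated libraries. All irradiated values lay above all non-irradiated values. Its log2 fold change was 0.42 (SE 0.062), with an edgeR adjusted p of 9.42e-04. Pdk4 kept its call under each of the 19 other fits that were run, with adjusted p up to 0.0111.

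Pdk1, the isoform known as a HIF target, did not share this. Pdk1 stood at 29.9, 31.0, 32.3 and 31.8 CPM in irradiated libraries, against 30.6, 37.5, 34.6 and 32.7 CPM in non-irradiated libraries. The groups overlapped through non-irradiated I, and the log2 fold change was -0.12 with an edgeR adjusted p of 0.276. Within libraries the Pdk4 count was 0.719, 0.606, 0.617 and 0.613 of the Pdk1 count in irradiated libraries, against 0.457, 0.402, 0.421 and 0.485 in non-irradiated libraries. The log2 difference of that ratio was 0.53, with no overlap, an exact permutation p of 0.0286 and 0.124 after adjustment over 13 ratios. Pdha1, the catalytic subunit that these kinases act on, averaged 209 ± 6.88 CPM in irradiated and 211 ± 7.72 CPM in non-irradiated libraries (log2 fold change -0.02).

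Outside glycolysis, 2 of 12 HIF targets were called higher, against 2.59% of all tested genes. Ddit4 (REDD1), an inhibitor of mTORC1 induced by hypoxia and also by p53, stood at 66.4, 64.2, 70.9 and 64.3 CPM in irradiated libraries, against 61.0, 55.4, 59.9 and 58.3 CPM in non-irradiated libraries. All irradiated values lay above all non-irradiated values. Its log2 fold change was 0.18 (SE 0.045), with an edgeR adjusted p of 0.0314. The call was lost without irradiated I (adjusted p = 0.0742), irradiated III (0.100), non-irradiated II (0.063), non-irradiated IV (0.0687) or irradiated I and II together (0.104), and with an offset for GC content and length (0.062), each by edgeR.

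Kdm3a, a histone H3 lysine demethylase induced at low oxygen, stood at 179, 186, 172 and 177 CPM in irradiated libraries, against 157, 162, 159 and 165 CPM in non-irradiated libraries. Again no value of one group reached the other. It had a log2 fold change of 0.15 (SE 0.036), with an edgeR adjusted p of 0.0234. The call was lost without irradiated I (adjusted p = 0.065), II (0.0788) or IV (0.0574), without non-irradiated I (0.0576), without irradiated I and II (0.2297) and without non-irradiated I and III (0.0874), each by edgeR.

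**Figure D2:**
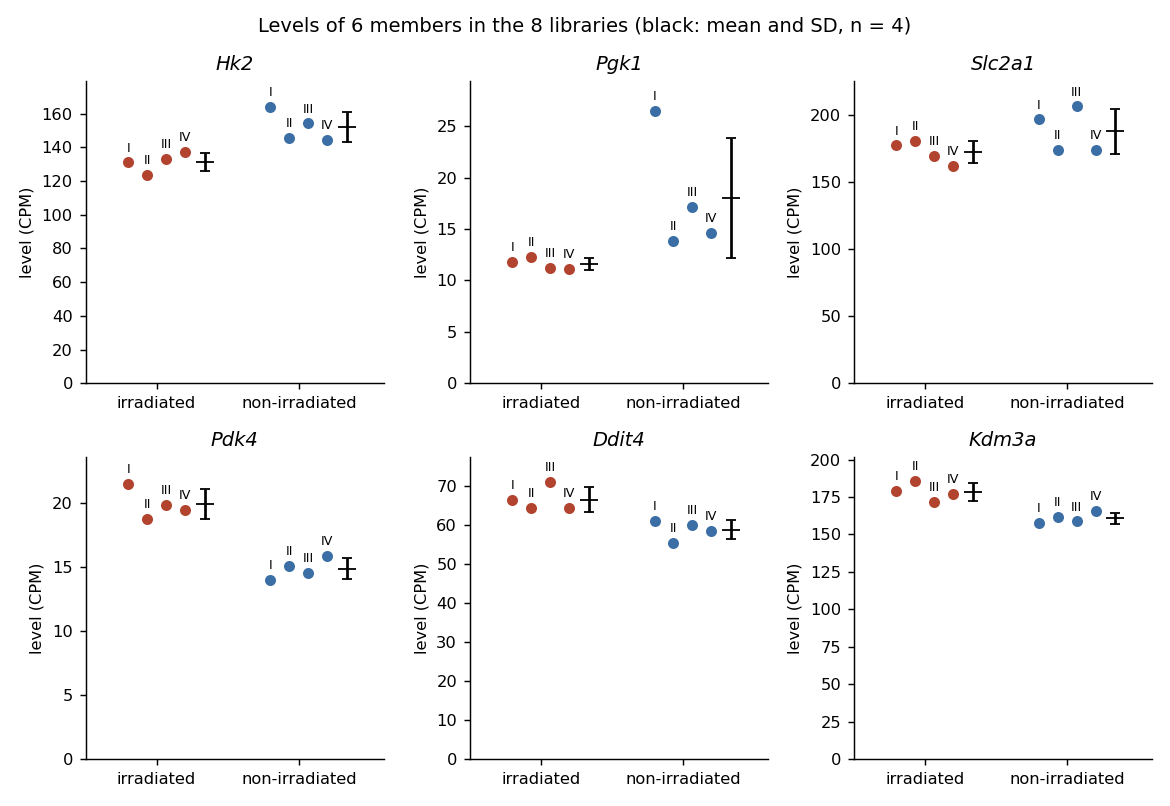
Levels in CPM of 6 genes, 1 point per library, with irradiated libraries left, non-irradiated libraries right, and the mean and SD of 4 libraries in black. The groups do not overlap for Hk2, Pgk1, Pdk4, Ddit4 and Kdm3a, and they overlap for Slc2a1.

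The other 10 HIF targets were not called. Car9, a carbonic anhydrase at the cell surface that regulates pH, stood at 3.73, 3.03, 3.30 and 2.67 CPM in irradiated libraries, against 3.31, 4.20, 3.55 and 3.94 CPM in non-irradiated libraries. The groups overlapped through irradiated I, and the log2 fold change was -0.23 with an edgeR adjusted p of 0.306. Its exons overlap the antisense gene Gm12454 over 214 bases, which is 9.29% of its exon bases. The strand setting of the counting is not given, so reads of that shared stretch cannot be assigned with certainty.

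Bnip3, a mitophagy receptor, stood at 13.4, 12.4, 12.3 and 11.6 CPM in irradiated libraries, against 13.8, 13.4, 14.6 and 13.7 CPM in non-irradiated libraries. The groups did not overlap, by a narrow margin, and the log2 fold change of -0.16 had an edgeR adjusted p of 0.157. Its relative Bnip3l averaged 50.8 ± 2.60 CPM in irradiated and 54.3 ± 1.98 CPM in non-irradiated libraries (log2 fold change -0.10).

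Egln3, a prolyl hydroxylase that is itself a HIF target, stood at 47.7, 50.6, 51.9 and 50.1 CPM in irradiated libraries, against 53.6, 54.5, 55.4 and 52.2 CPM in non-irradiated libraries. The highest irradiated value lay just under the lowest non-irradiated one, and the log2 fold change was -0.11 with an edgeR adjusted p of 0.130. Egln1, the main oxygen sensor of the family, averaged 50.1 ± 1.197 CPM in irradiated and 47.7 ± 1.47 CPM in non-irradiated libraries (log2 fold change 0.07). The ratio of Egln3 to Egln1 counts was 0.935 to 1.06 in irradiated libraries and 1.07 to 1.18 in non-irradiated libraries. Its log2 difference was -0.18, with an exact permutation p of 0.0286 and 0.124 after adjustment over 13 ratios.

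The collagen prolyl hydroxylase subunits P4ha1 and P4ha2, which stabilise the collagen helix, had log2 fold changes of -0.10 and -0.03. Adm, the vasodilator adrenomedullin, had -0.08 and Ndrg1, a stress and differentiation gene, had -0.07. Ankrd37 lay between 0.763 and 1.24 CPM, with 263 counts over the 8 libraries. Of its exon bases, 22.7% overlap Lrp2bp, which had 44 counts, and 3.7% overlap Ufsp2, which had 16201. The part of these overlaps in its counts was not tested. Of the 12 HIF targets, 2 were called higher and 0 lower by edgeR, DESeq2 and limma-voom alike. Over all tested genes these tools called 2.59%, 3.53% and 2.44% higher and 4.15%, 5.08% and 4.02% lower, in that order. At an unadjusted p under 0.05 edgeR counted 2 higher and 3 lower, against 9.5% and 11.7% of all tested genes.

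Set side by side, glycolysis genes and other HIF targets had nearly the same median log2 fold change, -0.07 and -0.08. The calls lay in opposite directions, with 0 higher and 2 lower of 20 glycolysis genes and 2 higher and 0 lower of 12 other HIF targets. The lower calls include Pgk1, whose counts are uncertain. Whether the groups of genes differ was not tested, and with so few calls the counts alone do not show it. A separate list of 33 further HIF targets, described below, had 0 higher and 3 lower, against 2.59% and 4.15% of all tested genes. Glycolysis genes spanned -0.63 to 0.29 and the other HIF targets -0.23 to 0.18. All 12 HIF targets changed by less than 1.2-fold, as did 17 of 20 glycolysis genes.

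Hif1a stood at 903, 910.3, 891 and 929 CPM in irradiated libraries, against 912, 1031, 949 and 987 CPM in non-irradiated libraries. The groups overlapped through non-irradiated I, and the log2 fold change was -0.10 with an edgeR adjusted p of 0.195. Without non-irradiated I and III it was -0.15 with an edgeR adjusted p of 0.0215, a call that the full set of libraries did not give. For Hif1a, non-irradiated I and III lay below II and IV. Leaving them out raises the level of their group, so that call tests nothing. Epas1, which encodes HIF-2 alpha, lay between 0.441 and 0.857 CPM in all 8 libraries. Vhl averaged 60.5 ± 1.29 CPM in irradiated and 62.4 ± 2.18 CPM in non-irradiated libraries (log2 fold change -0.05).

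Levels between genes were compared as CPM per kilobase of exon. Aldoa was highest, at 257 ± 10.0 in irradiated and 275 ± 25.7 in non-irradiated libraries, followed by Tpi1 at 169 ± 4.88 in irradiated and 186 ± 11.3 in non-irradiated libraries. Hif1a at 154 in irradiated and 165 in non-irradiated libraries stood level with Pkm, which had 151 in irradiated and 164 in non-irradiated libraries. Ldha followed at 136 in irradiated and 137 in non-irradiated libraries. At the low end, irradiated libraries had 1.38 for Car9, 0.682 for Ankrd37, 0.346 for Aldoc and 0.125 for Epas1, and non-irradiated libraries had 1.63, 0.603, 0.438 and 0.112 for the same genes. Gapdh, at 3.55 in irradiated libraries and 3.34 in non-irradiated libraries, lay far below Tpi1 at the step before it and near Pgk1 at the step after it, which had 5.18 in irradiated and 8.03 in non-irradiated libraries. The uncertainty of these counts is given above.

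**Figure D3:**
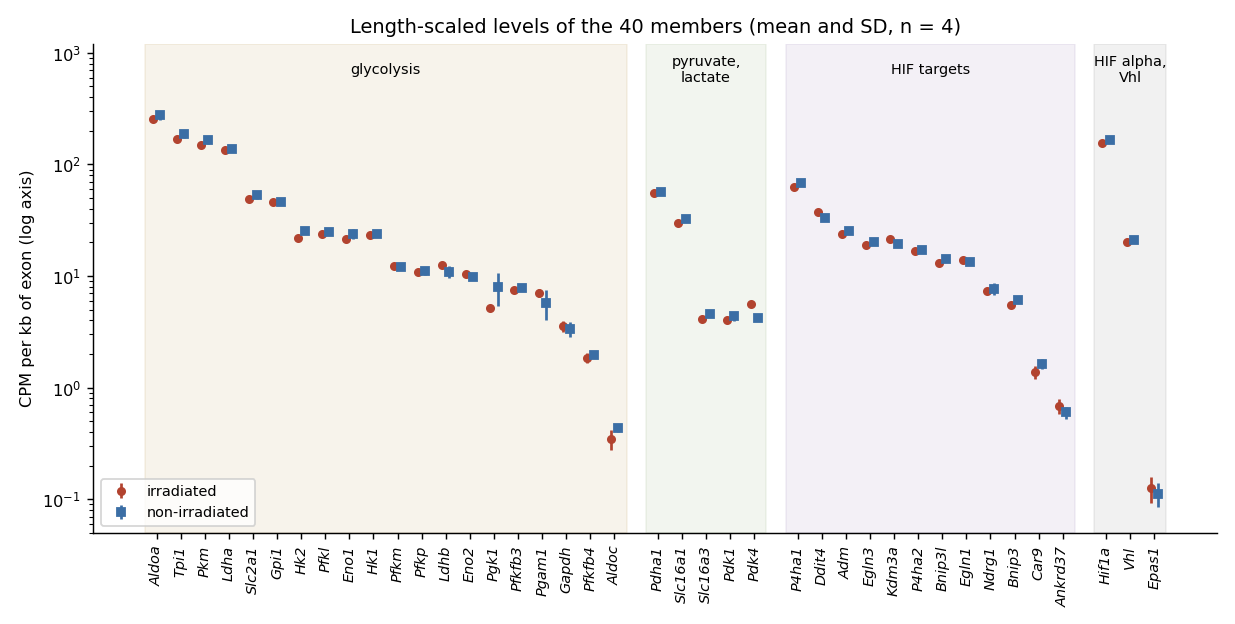
Mean CPM per kilobase of exon on a log axis for each of the 40 genes, with the SD over 4 libraries, irradiated left of non-irradiated for each gene. Levels span from Aldoa at 257 to Epas1 at 0.125 in irradiated libraries, far wider than any difference between the groups.

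Spread between libraries of a group was small. The median SD on the log2 scale, pooled over both groups, was 0.071 for the 40 genes against 0.097 for all tested genes. For glycolysis genes it was 0.066 within irradiated and 0.090 within non-irradiated libraries, and the non-irradiated SD was the larger for 13 of 20 genes (65%). Over all tested genes the median SD was 0.080 within irradiated and 0.104 within non-irradiated libraries, with the larger SD in non-irradiated libraries for 65.7%, so the glycolysis genes lay near the background. For the other HIF targets the median SD was 0.069 within irradiated and 0.057 within non-irradiated libraries. Genes were not matched for level in these comparisons, and the part of level in the spread was not tested. Level percentiles among all tested genes ran from 11.96 (Epas1) to 99.58 (Hif1a) in the set.

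The order of the non-irradiated libraries was looked at after their values were seen. In non-irradiated I and III, 10 of the 20 glycolysis genes lay above both non-irradiated II and IV, namely Slc2a1, Hk1, Hk2, Gpi1, Aldoa, Tpi1, Pgk1, Eno1, Pkm and Ldhb. It was not particular to glycolysis. In the whole set 16 of the 40 genes had that order, including the HIF targets Bnip3, Egln1, Ndrg1, P4ha2 and Ddit4. Over all tested genes 25.9% had that order. The opposite order, with I and III below II and IV, was found in 2 of the 20 glycolysis genes, Pfkp and Gapdh. It was found in 7 of the 40 genes and in 25.1% of all tested genes. Leaving out libraries that are high in a gene lowers the level of their group, so fold changes of these genes without I and III describe the size and test nothing. They were -0.01 for Slc2a1, -0.07 for Tpi1, -0.06 for Eno1, -0.04 for Pkm, 0.03 for Aldoa, -0.14 for Hk2, -0.29 for Pgk1 and 0.31 for Ldhb. Mitochondrial ribosomal RNA was 4661 and 4178 CPM of the unscaled total in non-irradiated I and III and 4900.4 and 5915 in II and IV, and its part in this pattern was not tested. Among irradiated libraries, IV was lowest of its group for Slc2a1, Hk1, Pfkl, Aldoa, Aldoc, Tpi1, Pgk1, Pgam1, Eno1, Pkm and Ldha. It was highest of its group for Hk2, Pfkp, Pfkm and Ldhb. In irradiated IV, 8 of the 20 glycolysis genes (40%) lay above their group mean, as in irradiated III, against 51% of all tested genes in IV. How often IV was lowest over all tested genes was not computed.

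**Figure D4:**
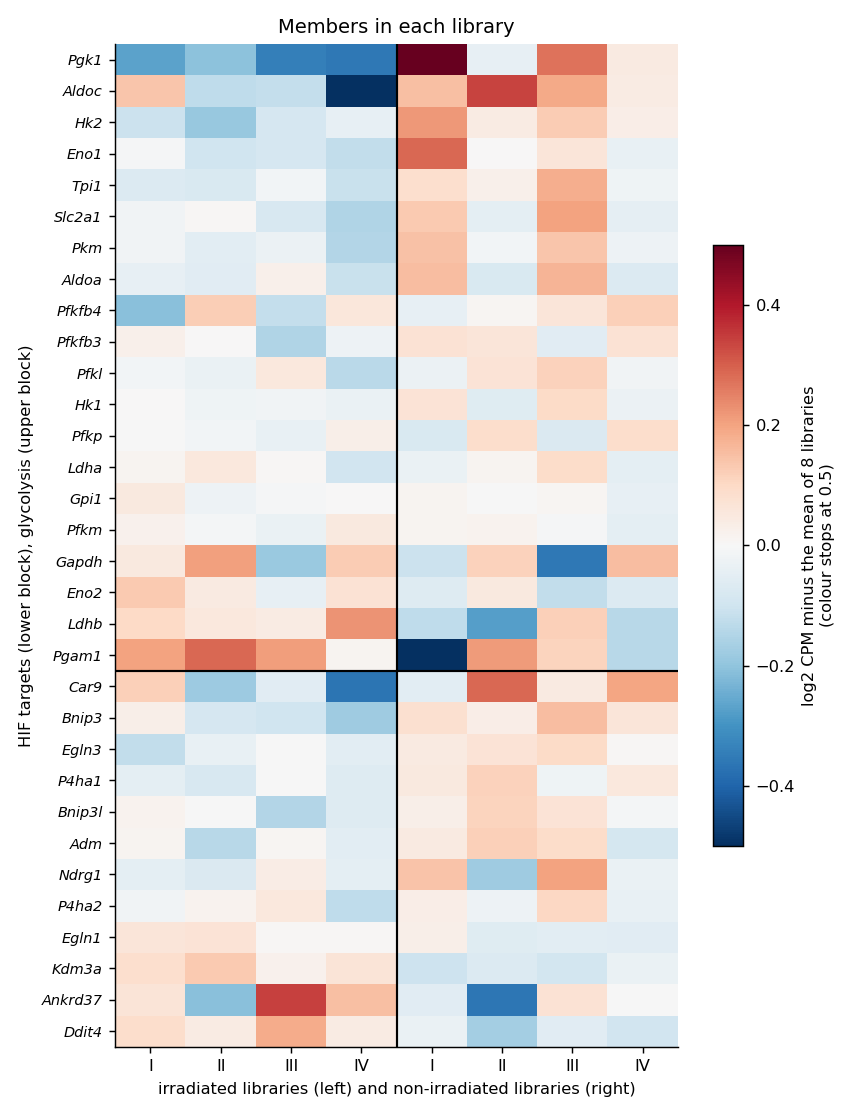
Log2 CPM minus the mean of the 8 libraries, for 20 glycolysis genes (upper block) and 12 HIF targets (lower block), with irradiated libraries I to IV left and non-irradiated libraries I to IV right. Red is higher and blue lower, and the red columns of non-irradiated I and III cover much of the upper block from Pgk1 to Aldoa.

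On GRCm38, the genes called lower lie at chr6:82725025-82774454 (Hk2, ENSMUSG00000000628, minus strand) and chrX:106187100-106203699 (Pgk1, ENSMUSG00000062070, plus strand). The genes called higher lie on the minus strand, Pdk4 (ENSMUSG00000019577) at chr6:5483351-5496309, Ddit4 (ENSMUSG00000020108) at chr10:59949669-59951834 and Kdm3a (ENSMUSG00000053470) at chr6:71588972-71632990. No exon of these 5 overlaps that of another gene in GENCODE M21. Their promoters are shown because these genes were called, not for their content, and the HIF core lies in each of them. Windows of 250 bases before to 50 after the start site came from RefSeq on GRCm38.p6, where 37 of the 40 genes were matched. Capitals mark ACGTG or GCGTG read on either strand, so that CACGT is ACGTG on the opposite strand. The windows lie at chr6:82774405-82774704 on the minus strand for Hk2 and chrX:106186850-106187149 on the plus strand for Pgk1. For Pdk4 the window lies at chr6:5496229-5496528, for Ddit4 at chr10:59951721-59952020 and for Kdm3a at chr6:71632868-71633167, all on the minus strand.
Hk2: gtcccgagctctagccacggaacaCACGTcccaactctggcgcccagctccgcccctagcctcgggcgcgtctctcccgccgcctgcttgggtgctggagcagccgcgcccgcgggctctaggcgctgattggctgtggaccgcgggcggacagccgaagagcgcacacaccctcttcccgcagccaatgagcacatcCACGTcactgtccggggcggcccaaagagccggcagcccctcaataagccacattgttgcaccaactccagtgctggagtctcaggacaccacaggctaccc
Pgk1: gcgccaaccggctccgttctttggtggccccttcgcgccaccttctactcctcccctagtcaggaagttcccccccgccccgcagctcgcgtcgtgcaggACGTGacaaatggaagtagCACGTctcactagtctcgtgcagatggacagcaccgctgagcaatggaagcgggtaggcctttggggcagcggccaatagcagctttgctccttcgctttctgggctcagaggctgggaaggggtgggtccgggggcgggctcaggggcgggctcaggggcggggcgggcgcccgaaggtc
Pdk4: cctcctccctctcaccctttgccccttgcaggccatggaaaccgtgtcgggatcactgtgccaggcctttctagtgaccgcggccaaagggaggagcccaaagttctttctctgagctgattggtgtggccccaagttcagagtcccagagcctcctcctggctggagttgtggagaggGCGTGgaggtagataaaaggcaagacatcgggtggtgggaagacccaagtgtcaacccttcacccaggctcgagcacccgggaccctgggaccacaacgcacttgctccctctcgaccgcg
Ddit4: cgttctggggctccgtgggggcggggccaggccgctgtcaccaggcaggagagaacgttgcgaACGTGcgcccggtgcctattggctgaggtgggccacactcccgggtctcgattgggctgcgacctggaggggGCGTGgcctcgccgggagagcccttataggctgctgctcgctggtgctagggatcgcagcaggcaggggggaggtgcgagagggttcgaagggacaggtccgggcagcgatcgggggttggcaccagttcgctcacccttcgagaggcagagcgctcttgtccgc
Kdm3a: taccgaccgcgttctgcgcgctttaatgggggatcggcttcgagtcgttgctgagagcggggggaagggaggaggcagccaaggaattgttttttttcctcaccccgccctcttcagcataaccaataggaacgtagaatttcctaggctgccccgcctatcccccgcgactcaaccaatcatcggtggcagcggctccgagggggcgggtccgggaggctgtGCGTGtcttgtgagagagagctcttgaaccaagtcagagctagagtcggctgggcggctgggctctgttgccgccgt

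The genes called lower each had 2 ACGTG cores, 226 and 52 bases before the start in Hk2 and 150 and 131 bases before it in Pgk1. Among the genes called higher, Pdk4 had 1 GCGTG core 71 bases before the start and Kdm3a 1 GCGTG core 27 bases before it. Ddit4 had 1 of each, with ACGTG 187 and GCGTG 115 bases before the start. These starts are those of RefSeq. For Pdk4, Ddit4 and Kdm3a they lie inside the gene bounds given above, and so does the core of Kdm3a. At least 1 of the cores was found in 33 of the 37 matched genes (89.2%). The share was 66.7% for the 10660 tested genes with a window and 46.7% for all 27025 genes with one. A gene counted if any of its windows held a core, so genes with more windows could match more easily. Kdm3a had 3 windows, and the window nearest its annotated gene start is shown. ACGTG, with or without the other core, was found in 62.2% of the matched genes and 29.1% of tested genes, and it includes every CACGTG (16.2% and 11.6%). GCGTG was found in 67.6% of the matched genes and 55.1% of tested genes. Genes known as HIF targets were among those put into the set, a match is no proof of binding, and the cores were present in genes that moved either way and in most that were not called.

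The neighbouring pathways were read from lists chosen with earlier results of these data known. Of 28 further genes of glucose transport, glycolysis and gluconeogenesis, 18 were tested. By edgeR, 1 (5.56%) was called lower and 0 higher, against 4.15% and 2.59% of all tested genes. The gene called lower was Pck2, the mitochondrial enzyme that makes phosphoenolpyruvate from oxaloacetate. Pck2 stood at 60.7, 61.7, 61.9 and 58.5 CPM in irradiated libraries, against 77.5, 69.2, 72.4 and 68.9 CPM in non-irradiated libraries. The groups did not overlap, and the log2 fold change was -0.25 (SE 0.045) with an edgeR adjusted p of 0.00482, a call kept in all 19 other fits (adjusted p up to 0.0451). At an unadjusted p under 0.05 edgeR counted 1 higher and 2 lower there, and DESeq2 called 1 higher and 2 lower. Over all tested genes the shares were 9.5% higher and 11.7% lower at that unadjusted p, and 3.53% and 5.08% by DESeq2.

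Among 8 pentose phosphate genes, which route glucose 6-phosphate to NADPH and ribose, 1 was called lower and 0 higher by edgeR. It was Tkt, transketolase, at 308 ± 14.2 CPM in irradiated and 344 ± 18.7 CPM in non-irradiated libraries (log2 fold change -0.16, edgeR adjusted p 0.0492). The Tkt call was lost in 10 of 19 other fits, with edgeR adjusted p up to 0.149 with 1 library left out and 0.292 without irradiated I and II. DESeq2 called 2 of these genes higher and 1 lower, and edgeR counted 2 higher and 1 lower at an unadjusted p under 0.05. None of 11 genes of pyruvate entry and the pyruvate dehydrogenase complex was called by edgeR, DESeq2 or limma-voom, and edgeR counted 2 higher and 0 lower at an unadjusted p under 0.05. None of 13 glycogen genes was called by the same tools, with 0 higher and 2 lower at an unadjusted p under 0.05. None of 12 tested HIF partners and oxygen-sensing genes was called either, with 1 higher and 3 lower at an unadjusted p under 0.05. Beside these lists, edgeR called 2.59% of all tested genes higher and 4.15% lower, DESeq2 3.53% and 5.08%, and limma-voom 2.44% and 4.02%. The edgeR shares at an unadjusted p under 0.05 were 9.5% higher and 11.7% lower.

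Of 33 further HIF targets, 3 (9.09%) were called lower and 0 higher by edgeR, against 4.15% and 2.59% of all tested genes. DESeq2 called 4 lower and 2 higher, against 5.08% and 3.53% of all tested genes, and edgeR counted 8 lower and 3 higher at an unadjusted p under 0.05, against 11.7% and 9.5%. Insig2, which restrains sterol synthesis at the endoplasmic reticulum, stood at 119, 121, 115 and 112 CPM in irradiated libraries, against 130.4, 145, 135 and 129.6 CPM in non-irradiated libraries. The groups did not overlap, and the log2 fold change was -0.21 with an edgeR adjusted p of 0.0107. Lox, which crosslinks collagen, had a log2 fold change of -0.17 (edgeR adjusted p 0.0249), a call lost in 5 of 19 other fits (adjusted p up to 0.243 without irradiated I and II). Anxa2, a calcium-dependent membrane binding protein, had -0.17 as well (edgeR adjusted p 0.0252), a call lost in 7 of 19 other fits (adjusted p up to 0.216 without irradiated I and II). The Insig2 call was kept in all 19. The median log2 fold change of these 33 genes was -0.04.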

How the data were processed

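Per the labels, polyA RNA was extracted with a Qiagen RNeasy kit. The authors deposited raw read counts per Ensembl gene, 1 file per library, not normalized. The submitters' processing notes list mm10 and, as tools, featureCounts (1.5.0-p1), STAR (2.5.2a) and bcl2fastq (2.20.0.422). The annotation release is not given in the sources used here, nor are strandedness and the treatment of multiply mapping reads.

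Symbols came from GENCODE M21, which matched 55480 identifiers, and the 93 others held 0.000431% of counts. Aldoa had more than 1 identifier, and the one with more counts was used. Genes kept by filterByExpr (minimum count 10, minimum total 15) were fitted with edgeR 4.0.16 in R 4.3.3, using TMM factors, group as the sole term and Benjamini-Hochberg adjustment over 15259 genes. Each SE is the absolute fold change over the square root of F. Ratios used raw counts of pairs of genes in a library, with a two-sided exact permutation test. The pipeline was tested on simulated data. A gene with 0 counts allows up to 3 counts per library, which covers counting error only, as counts without molecular identifiers are not independent molecules.

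The members and lists were chosen with earlier results of these data known. Values per library were given for members called at 0.05 and for Slc2a1, Hk2, Pgk1, Gapdh, Ldha, Pdk1, Bnip3, Car9, Egln3 and Hif1a. From each other list up to 5 called genes with the smallest adjusted p were named. Promoter windows and other genes singled out were chosen after their values were seen. Alternatives were DESeq2 1.42.0, limma-voom (limma 3.58.1), RLE or upper-quartile factors, a filter of 1 CPM in 4 libraries, no filter beyond 1 count, the replicate number as block, a threshold of 0.01, and fits lacking each library, irradiated I and II, or non-irradiated I and III. An offset for GC content and length (loess span 0.5), alone and with the block, was added after seeing the data.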

Additional observations from a re-analysis of the deposited data

Results flagged for a closer look

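Within each group of 4, the gap between an extreme library and its neighbour was compared with the range of the group for all 40 genes, which made 80 groups. By chance about 1 in 20 groups passes the 95% critical value of Dixon's test, and 2 of the 80 passed it. Pfkfb3, an activator of the phosphofructokinase step, stood at 55.7 CPM in non-irradiated III, against 60.6 to 61.1 CPM in the other 3 non-irradiated libraries, a gap of 0.903 of the range. Egln1, the oxygen-sensing prolyl hydroxylase, stood at 49.9 CPM in non-irradiated I, against 46.9 to 47.1 CPM in the other 3, a gap of 0.927 of the range. Neither gene was called between the groups.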

How the results depend on the processing

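RLE and upper-quartile factors, limma-voom and the 1 CPM filter called the same 5 members. Members called higher (3) numbered 1 without irradiated I and II, 1 at a threshold of 0.01, and 1 to 4 with each library left out. Members called lower (2) numbered 4 with no filter, 0 without irradiated I and II, 0 at 0.01 and 0 to 2 with each library left out. All members called lower in these settings were glycolysis genes, except Hif1a without non-irradiated I and III, where glycolysis had 1. With no filter the edgeR adjusted p of Pgk1 was 1.96e-14, against 0.0335 with the filter. Its log2 fold change was nearly the same (-0.624 and -0.628), so adjusted p without the filter should not be set beside the others. Glycolysis genes called higher (0) numbered 1 with no filter (Pgam1), 1 without non-irradiated I and III (Ldhb) and 0 to 1 with each library left out. HIF targets called higher (2) numbered 0 without irradiated I and II, 1 without non-irradiated I and III, 1 with the GC and length offset, 0 at 0.01 and 0 to 2 with each library left out. The median log2 fold change lay between -0.077 and -0.042 for glycolysis and between -0.097 and -0.040 for HIF targets with each library left out, and at -0.019 for HIF targets without non-irradiated I and III. The cause of these changes was not tested, beyond the fewer libraries in each such fit.

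The replicate numbers gave no clear pairing, and whether same-numbered libraries share a batch was not tested. Deviations of same-numbered libraries correlated at 0.0248, -0.0332, 0.275 and 0.147 for I to IV. The value for III was the highest between any irradiated and any non-irradiated library, but not every library correlated best with its own number. With the number as a block, 5 members were called lower, all of them glycolysis genes (Hk2, Tpi1, Pgk1, Eno1 and Pkm), and 3 higher. With the block and the offset together, 4 were called lower, all glycolysis. Over all tested genes the block called 550 higher and 802 lower, against 395 and 634 without it.

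Signs turned in members called in neither setting. Without non-irradiated I and III the log2 fold changes were 0.029 for Hk1, 0.028 for Aldoa, -0.081 for Gapdh, 0.013 for Ldha, 0.000 for Pdha1, 0.073 for Ndrg1 and 0.018 for P4ha2. Pfkp was at 0.010 with the offset and 0.012 with the block and offset. With each library left out, values ran from -0.005 to 0.017 for Gpi1, -0.041 to 0.016 for Pfkp, -0.002 to 0.026 for Pfkm, -0.007 to 0.164 for Gapdh, -0.034 to 0.018 for Ldha, -0.034 to 0.009 for Pdha1 and -0.058 to 0.002 for P4ha2. The log2 ratio of Pfkfb4 to Pfkfb3 ran from -0.040 to 0.079 and that of Pfkm to Pfkp from -0.017 to 0.059. Ratios with 3 against 4 libraries cannot pass 0.05 by the exact permutation test. Depth limits what can be said of Car9, Ankrd37, Aldoc and Epas1, which had the fewest counts.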

Other observations

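Some tissue-restricted relatives of the glycolysis genes were almost without counts. Over the 8 libraries, Pgk2, the testis phosphoglycerate kinase, Pck1, the cytosolic enzyme of liver gluconeogenesis, and Fbp1 each had 0 counts, Pklr had 4 and Hk3 44. Hif3a, the third HIF alpha gene, had 1 count.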
